A study of Mus musculus with 4 samples.

Results

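The genes described here are the 20 enzymes of cholesterol synthesis measured in these data, the 6 genes that control or process the sterol-responsive transcription factor SREBP2, and 3 genes that move cholesterol inside the cell. They were taken by symbol from a written list of 29 genes, and all 29 were found among 22700 gene rows. All 29 reached the level minimum of 20 normalised reads in at least 1 library, as 13642 genes did, and the lowest level of any of them was 135 (Tm7sf2 in db/+ M-CSF cells). Total RNA of cultured mouse bone marrow cells was depleted of ribosomal RNA and sequenced from both ends. The donors were male and 12 weeks old: type 2 diabetic db/db mice (BKS.Cg-m+/+leprdb/J), which are homozygous for the db mutation of the leptin receptor gene Lepr, and control db/+ littermates (BKS.Cg-m+/+leprdb+/J). Marrow of each genotype was grown for 7 to 8 days with 20 ng/ml of GM-CSF, which gives macrophages and cells with dendritic features, or with 10 ng/ml of M-CSF, which gives macrophages. The 4 groups were therefore db/db GM-CSF, db/+ GM-CSF, db/db M-CSF and db/+ M-CSF, with 1 library each. The sources used here do not say whether a library came from 1 animal or from several. A difference between a pair of libraries thus has no replicate check.

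Cells build cholesterol from acetyl-CoA. The early enzymes make mevalonate and turn it into isoprene units, the next join these into farnesyl diphosphate and squalene, and the last close the ring and trim it into cholesterol. When sterol in the endoplasmic reticulum is low, the escort protein SCAP carries SREBP2 to the Golgi, where the site-1 and site-2 proteases release its active part, which switches on most genes of the pathway. INSIG proteins hold SCAP back when sterol is plentiful. Macrophages also take in cholesterol with engulfed cells and lipoproteins, and NPC1 and NPC2 then move it out of the lysosome.

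The libraries held 28622706 reads in db/db GM-CSF, 27216115 in db/+ GM-CSF, 27590722 in db/db M-CSF and 25603389 in db/+ M-CSF cells, recovered from the deposited values. Levels below are normalised reads: read counts scaled to a common library size by the authors, not corrected for gene length, so levels of different genes are not compared. Ratios carry exact 95% intervals on read pairs, which cover counting error only. The 10 macrophage markers were present in all 4 libraries and summed to 757230 and 758880 normalised reads in db/db and db/+ GM-CSF cells, against 533400 and 562550 in db/db and db/+ M-CSF cells. Lyz2, the macrophage lysozyme gene, made up most of the GM-CSF sums, at 621787 in db/db and 626680.5 in db/+ GM-CSF cells, against 242719 in db/db and 250024 in db/+ M-CSF cells. Of the 10, 7 had a log2 fold below 0 in GM-CSF cells and 6 were called lower and 2 higher by the limma model below, with a median log2 fold of -0.79. Over all genes 27.3% were called lower and 29.8% higher. The 10 markers of GM-CSF culture and dendritic cells summed to 501300 and 476450, against 15343 and 17930, in the same order. Mmp12 made up most of the GM-CSF sums, at 426470 in db/db and 401959 in db/+ GM-CSF cells, against 4491 in db/db and 4085 in db/+ M-CSF cells. Of the 10, 8 were called higher and 1, Flt3, lower by the same model, with a median log2 fold of 2.34. Of these 10, the dendritic progenitor marker Flt3 was at 0 in both GM-CSF libraries. Lepr was at 60.3 in db/db and 49.4 in db/+ GM-CSF cells and at 21.8 in db/db and 6.7 in db/+ M-CSF cells. The db allele alters splicing, so a gene total does not check the genotype.

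A pair of features of the libraries bears on the results. With counts taken as read pairs, the GM-CSF libraries of the opposite genotypes differed by about sampling noise at moderate levels. Over 4132 genes with at least 200 and under 1000 reads in both, the mean squared deviation between them was 1.05-fold the variance that sampling of pairs gives, against 4.39-fold over 3931 genes between the M-CSF libraries. Over genes with at least 5000 reads in both it was 5.21-fold over 897 genes in GM-CSF, against 67.2-fold over 901 genes in M-CSF. With single reads as the unit, the sampling variance would be smaller and all of these values larger. Whether the GM-CSF libraries come from separate cultures was not tested. The 15 fibroblast and stromal markers summed to 415 and 385 normalised reads in db/db and db/+ GM-CSF cells, with 7 of the 15 under 3 read pairs in each of these libraries, and to 81839 and 30047 in db/db and db/+ M-CSF cells. Col1a1 and Col3a1, collagen genes of this list, were at 3.2 and 0 in db/db and at 6.7 and 1.1 in db/+ GM-CSF cells, against 5709 and 1669.5 in db/db and 2273 and 666 in db/+ M-CSF cells. In RNA of whole cultures, a change in the share of a cell type and a change in RNA per cell cannot be told apart.

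The promoters of 24 of the 29 genes were read from RefSeq (build GRCm38.p6) as the 250 bases before each start. Shown here are those of Mvd and Lbr, the genes with the highest and the lowest culture fold below, of Hmgcs1, the only one of the 24 with the looser sterol-element letters, and of Insig1, the feedback gene. Sequences run 5′ to 3′ on the gene's strand. Capitals mark the 4 motifs searched on both strands: TCACNCCAC (a loose form of the sterol regulatory element that SREBPs bind), CACGTG (an E-box), CCAAT (the box of NF-Y) and GGGCGG (the GC box of SP1).
Mvd, chr8:122443423-122443672, minus strand: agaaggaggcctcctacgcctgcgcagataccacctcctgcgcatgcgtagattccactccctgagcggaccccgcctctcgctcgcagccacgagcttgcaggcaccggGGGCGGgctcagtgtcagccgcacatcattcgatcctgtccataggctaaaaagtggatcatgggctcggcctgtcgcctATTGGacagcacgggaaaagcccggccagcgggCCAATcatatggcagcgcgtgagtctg
Hmgcs1, chr13:119690101-119690350, plus strand: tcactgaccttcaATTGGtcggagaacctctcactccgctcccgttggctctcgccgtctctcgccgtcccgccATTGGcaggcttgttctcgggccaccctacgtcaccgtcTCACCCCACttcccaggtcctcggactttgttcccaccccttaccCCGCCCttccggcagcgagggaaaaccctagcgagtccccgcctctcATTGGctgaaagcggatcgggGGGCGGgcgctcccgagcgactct
Insig1, chr5:28071162-28071411, plus strand: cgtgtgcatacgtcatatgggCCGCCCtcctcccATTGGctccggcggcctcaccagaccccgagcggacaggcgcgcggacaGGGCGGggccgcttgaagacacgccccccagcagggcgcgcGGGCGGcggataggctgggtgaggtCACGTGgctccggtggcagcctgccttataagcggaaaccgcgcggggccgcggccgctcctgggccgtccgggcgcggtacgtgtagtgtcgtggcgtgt
Lbr, chr1:181842402-181842651, minus strand: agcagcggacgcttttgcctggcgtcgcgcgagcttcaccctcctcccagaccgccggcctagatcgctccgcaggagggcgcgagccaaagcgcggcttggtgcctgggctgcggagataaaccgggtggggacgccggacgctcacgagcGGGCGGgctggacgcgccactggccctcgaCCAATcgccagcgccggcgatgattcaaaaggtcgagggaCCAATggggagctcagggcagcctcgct
In Hmgcs1 the sterol-element letters began 137 bases before the start, with CCAAT letters on either side of them and both GGGCGG matches nearer the start. Insig1 held an E-box that began 101 bases before its start. Mvd and Lbr both held CCAAT and GGGCGG letters and neither of the other motifs, and their levels differed in opposite directions between the cultures.

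Counted per gene over all its listed starts, CCAAT stood in 20 of the 24 promoters (83.3%), among them 16 of 17 enzymes, against 40.6% of 10674 genes at the level minimum and 37.5% of 27025 genes. GGGCGG stood in 21 of 24 (87.5%), against 61.9% and 35.4% of the same genes. CACGTG was found in 5 of 24 (20.8%), in Hsd17b7, Sc5d, Dhcr7, Insig1 and Scap, against 9.66% and 6.86%. TCACNCCAC was found in 1 of 24 (4.17%), against 1.19% and 1.22%. A stricter form of it, with an A ahead and C at the N, was in none of the 24, and in 24 of 32851 promoters (0.0731%). In the 4 promoters shown no match overlapped another. These are matches of letters in a window, not binding sites.

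The first question was how the pathway differed between GM-CSF and M-CSF cultures. Nearly all of it stood higher in GM-CSF cells, in marrow of both genotypes. In limma, with genotype as the second factor, 25 of the 29 genes were higher in GM-CSF cells and 2 were lower (Lbr and Scap), at a Benjamini-Hochberg adjusted p under 0.05 over all 13642 genes. Of all genes tested, 29.8% were called higher and 27.3% lower. The median log2 fold was 1.03 over the 29 genes and 0.02 over all genes. In db/db marrow 14 of the 29 were at least 2-fold higher in GM-CSF cells and 1, Lbr, at least 2-fold lower, where 11.3% and 15.8% of all genes were. In db/+ marrow 15 were at least 2-fold higher and 1, again Lbr, at least 2-fold lower, where 12.0% and 15.7% of all genes were. The 14 genes of db/db marrow were all among the 15 of db/+ marrow, and Hsd17b7 was the other one. The GM-CSF libraries of the 2 comparisons differed by about the sampling noise of read pairs at moderate levels. Whether the 2 comparisons rest on separate GM-CSF cultures was not tested.

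The limma model has 1 residual degree of freedom and rests mostly on a spread shared across genes. It takes the GM-CSF libraries as separate samples. With them averaged and counted as 1 sample, an alternative added after the data were seen, 22 genes were called higher and 1, Lbr, lower. The stromal markers also differed between the cultures, with 14 of the 14 that reached the level minimum lower in GM-CSF cells, and their part in these results was not tested.

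**Figure D1:**
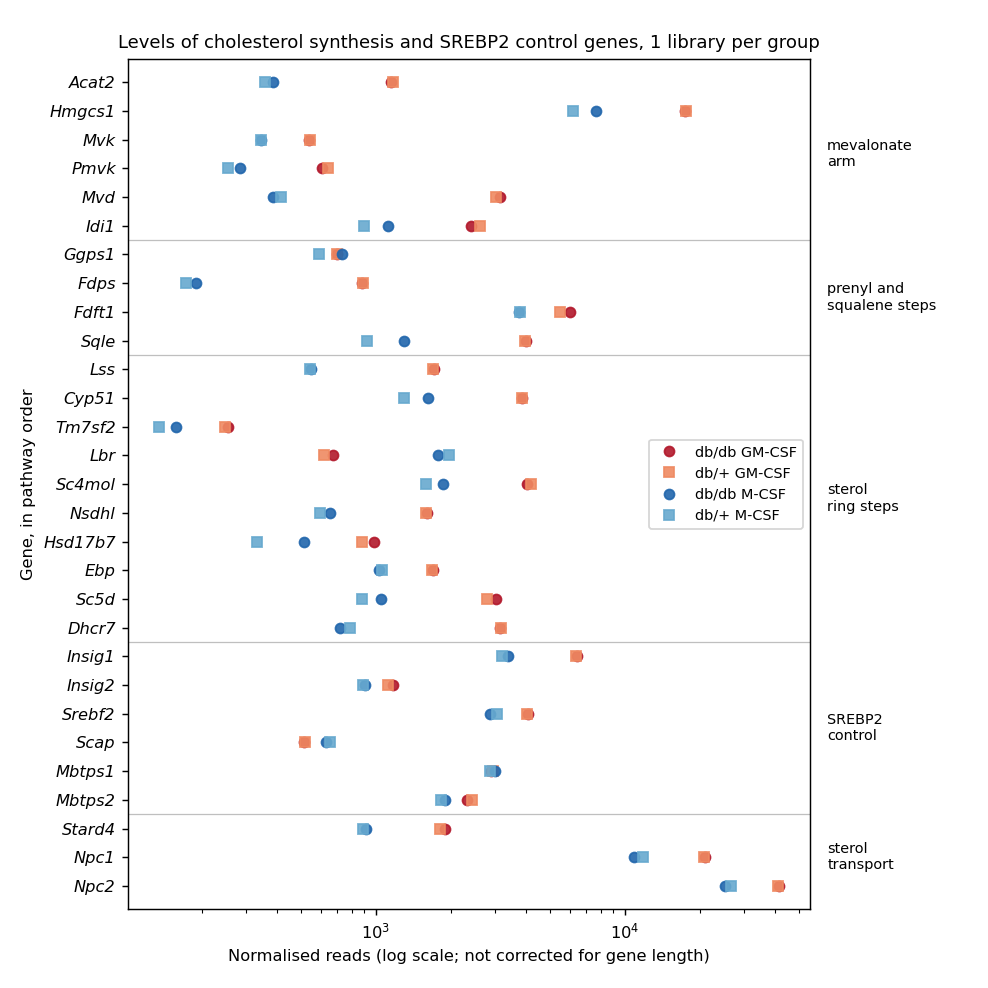
Levels of the 29 genes in pathway order, in normalised reads on a log scale, with 1 point per library (red and orange for GM-CSF, dark and light blue for M-CSF). The red and orange points lie to the right of the blue ones for most enzymes, and to the left for Lbr and Scap.

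The 6 enzymes of the mevalonate arm all rose in GM-CSF cells, with a median log2 fold of 1.34. Mvd, which decarboxylates mevalonate diphosphate to the first isoprene unit, was at 3164 in db/db and 3043 in db/+ GM-CSF cells, against 386 in db/db and 418 in db/+ M-CSF cells. This was the highest fold of the 29 genes, 8.20 (7.09 to 9.46) in db/db and 7.29 (6.30 to 8.42) in db/+ marrow. In limma its log2 fold was 2.93 ± 0.10 (SE; adjusted p = 5.78e-12), or 7.65-fold. The 4 values fell into separate pairs by culture, with the genotypes close together in each.

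Acat2, the cytosolic thiolase that makes acetoacetyl-CoA, was at 1146 in db/db and 1171 in db/+ GM-CSF cells, against 387 in db/db and 359 in db/+ M-CSF cells. Hmgcs1, the synthase that makes HMG-CoA, was at 17516 in db/db and 17608 in db/+ GM-CSF cells, against 7684 in db/db and 6172 in db/+ M-CSF cells. Its fold was 2.28 (2.20 to 2.36) in db/db and 2.85 (2.74 to 2.97) in db/+ marrow, and the 2 intervals did not overlap. The db/db M-CSF library lay above the db/+ M-CSF library, while the GM-CSF libraries were level.

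Of the kinases that phosphorylate mevalonate in turn, Mvk was at 541 in db/db and 542 in db/+ GM-CSF cells, against 344 in db/db and 346 in db/+ M-CSF cells. It had the smallest change in the arm, a log2 fold of 0.64 ± 0.14 (limma, SE; adjusted p = 9.85e-04). Pmvk, the next kinase, was at 609 in db/db and 645 in db/+ GM-CSF cells, against 285 in db/db and 254 in db/+ M-CSF cells. Idi1, the isomerase that makes the reactive isoprene unit, was at 2411 in db/db and 2626 in db/+ GM-CSF cells, against 1120.5 in db/db and 894 in db/+ M-CSF cells. For all 3 the culture groups did not overlap. The limma log2 folds of Acat2, Hmgcs1, Pmvk and Idi1 lay between 1.20 and 1.62, with SEs of 0.10 to 0.14 and adjusted p between 1.67e-08 and 4.36e-06.

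At the prenyl and squalene steps 3 of 4 genes rose and 1 did not pass. Fdps, which builds farnesyl diphosphate, was at 882 in db/db and 885 in db/+ GM-CSF cells, against 189 in db/db and 173 in db/+ M-CSF cells, a limma log2 fold of 2.26 ± 0.14 (SE; adjusted p = 4.02e-09). Sqle, the epoxidase that adds the first oxygen to squalene, was at 4001 in db/db and 3984 in db/+ GM-CSF cells, against 1292 in db/db and 919.8 in db/+ M-CSF cells. Its fold was 3.10 (2.84 to 3.37) in db/db and 4.33 (3.91 to 4.79) in db/+ marrow, with a limma log2 fold of 1.87 ± 0.11 (SE; adjusted p = 1.76e-09). The db/db M-CSF level stood above the db/+ M-CSF level, so the fold was smaller in db/db marrow.

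Fdft1, the squalene synthase that commits farnesyl diphosphate to sterols, was at 6047 in db/db and 5473 in db/+ GM-CSF cells, against 3767 in db/db and 3792 in db/+ M-CSF cells, a log2 fold of 0.61 ± 0.08 (limma, SE; adjusted p = 2.30e-05). The reference annotation places 774 bases of Fdft1 over the abundant cathepsin gene Ctsb, which was at 426616.5 in db/db and 418120.5 in db/+ GM-CSF cells, against 251218.5 in db/db and 269266 in db/+ M-CSF cells. Reads in the overlap could be counted to either gene, and the part of Ctsb in the Fdft1 values was not tested. Ggps1, which draws farnesyl diphosphate away to geranylgeranyl diphosphate for protein prenylation, was at 696 in db/db and 699 in db/+ GM-CSF cells, against 731 in db/db and 591 in db/+ M-CSF cells. Its log2 fold was 0.09 ± 0.12 (limma, SE; adjusted p = 0.579), and the GM-CSF levels lay between the M-CSF levels.

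Of the 10 enzymes that close and finish the sterol ring, 9 rose and 1 fell in GM-CSF cells, with a median log2 fold of 1.30. Dhcr7, the reductase that makes cholesterol in the last step of its branch, was at 3166 in db/db and 3169.6 in db/+ GM-CSF cells, against 717 in db/db and 790.4 in db/+ M-CSF cells. Its fold was 4.42 (3.95 to 4.93) in db/db and 4.01 (3.59 to 4.48) in db/+ marrow, the third highest of the 29 genes by the limma log2 fold of 2.07 ± 0.09 (SE; adjusted p = 1.11e-10). Lss, which folds squalene epoxide into lanosterol, was at 1709 in db/db and 1694 in db/+ GM-CSF cells, against 551 in db/db and 545 in db/+ M-CSF cells. Cyp51, the lanosterol demethylase, was at 3851 in db/db and 3851.5 in db/+ GM-CSF cells, against 1618 in db/db and 1295.5 in db/+ M-CSF cells. For these genes too each culture's libraries stood apart from the other's.

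The enzymes that strip the methyl groups from C4 all rose. Sc4mol, the C4 methyl oxidase now named Msmo1, was at 4029 in db/db and 4191 in db/+ GM-CSF cells, against 1869 in db/db and 1589 in db/+ M-CSF cells. Nsdhl, the decarboxylating dehydrogenase, was at 1599.7 in db/db and 1593 in db/+ GM-CSF cells, against 657 in db/db and 595 in db/+ M-CSF cells. Hsd17b7, the keto-reductase of the same complex, was at 983 in db/db and 882 in db/+ GM-CSF cells, against 517 in db/db and 333 in db/+ M-CSF cells. Hsd17b7 had the highest ratio of db/db to db/+ M-CSF cells among the 29 genes, and its fold was 1.90 (1.64 to 2.21) in db/db and 2.65 (2.21 to 3.18) in db/+ marrow.

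Sc5d, the C5 desaturase, was at 3027 in db/db and 2794 in db/+ GM-CSF cells, against 1046.5 in db/db and 882 in db/+ M-CSF cells. Ebp, the isomerase that shifts the ring double bond, was at 1699.8 in db/db and 1674.5 in db/+ GM-CSF cells, against 1026 in db/db and 1056 in db/+ M-CSF cells. The limma log2 folds of Lss, Cyp51, Sc4mol, Nsdhl, Hsd17b7, Ebp and Sc5d lay between 0.69 and 1.63, with adjusted p between 1.64e-09 and 1.95e-05. Ebp had the smallest of these.

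The pair of genes for the sterol C14 reductase differed in opposite directions. Tm7sf2, which serves that step alone as far as is known, was at 254 in db/db and 247 in db/+ GM-CSF cells, against 157 in db/db and 135 in db/+ M-CSF cells, a log2 fold of 0.76 ± 0.19 (limma, SE; adjusted p = 0.00332). Without the db/+ GM-CSF library its adjusted p was 0.062, and without the db/db GM-CSF library it was 0.0729. Lbr, the lamin B receptor, which both holds chromatin at the nuclear envelope and carries C14 reductase activity, was at 672 in db/db and 618 in db/+ GM-CSF cells, against 1777 in db/db and 1965 in db/+ M-CSF cells. Lbr fell in GM-CSF cells by 1.53 on the log2 scale (SE 0.11; limma adjusted p = 1.23e-08), with ratios of 0.378 (0.332 to 0.429) in db/db and 0.314 (0.275 to 0.360) in db/+ marrow. It was the only one of the 20 enzymes called lower.

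**Figure D2:**
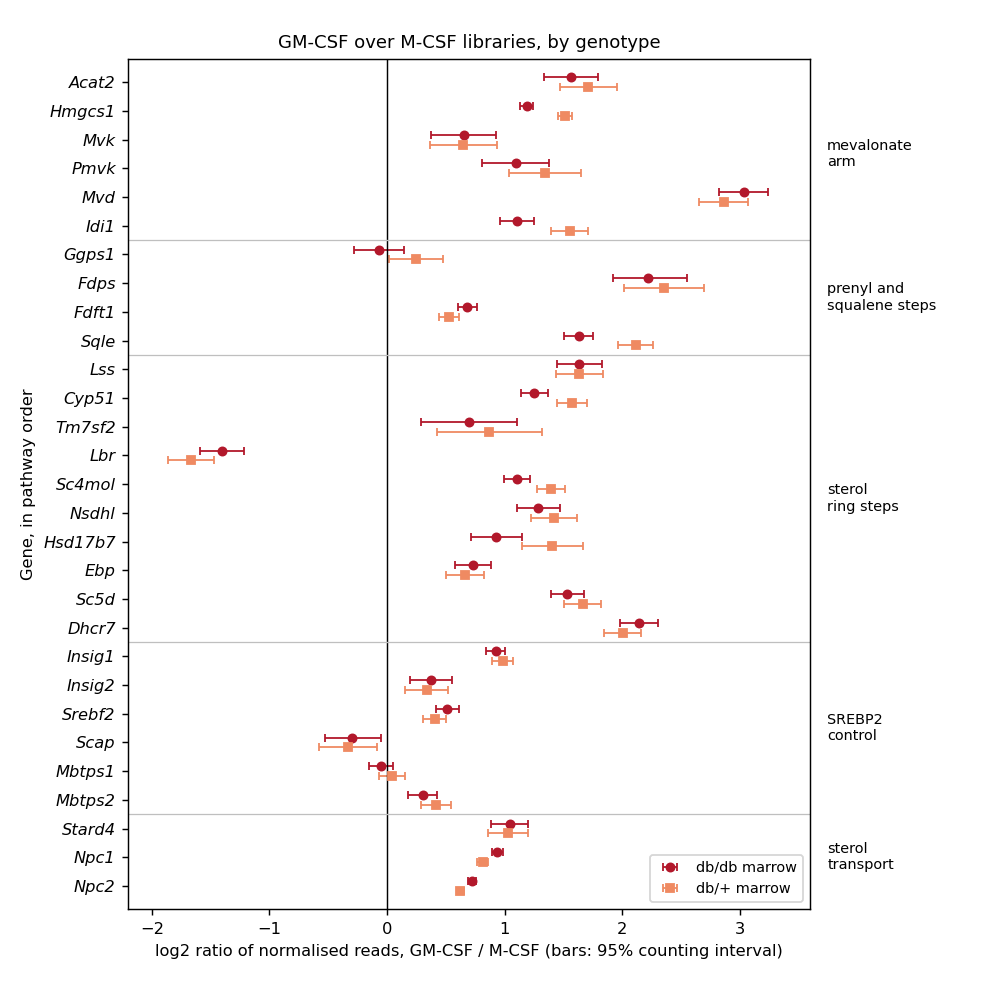
Ratio of normalised reads in GM-CSF over M-CSF cells on a log2 scale, for db/db marrow (dark red circles) and db/+ marrow (orange squares), with bars for the exact 95% counting interval. Mvd lies farthest right at 8.20 and 7.29, and Lbr farthest left at 0.378 and 0.314.

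Among the 6 control genes 4 rose and 1 fell, with a median log2 fold of 0.36, and none was 2-fold apart in either genotype. Insig1, which retains SCAP in the endoplasmic reticulum and is itself a target of SREBP2, was at 6436.5 in db/db and 6381 in db/+ GM-CSF cells, against 3393 in db/db and 3225 in db/+ M-CSF cells. Its log2 fold was 0.95 ± 0.08 (limma, SE; adjusted p = 1.47e-07). Insig2, its relative with a similar retention role, was at 1168 in db/db and 1123 in db/+ GM-CSF cells, against 901 in db/db and 888 in db/+ M-CSF cells, a log2 fold of 0.35 ± 0.10 (limma, SE; adjusted p = 0.00819). The reads on Insig1 were 5.51 (5.03 to 6.05) times those on Insig2 in db/db and 5.68 (5.17 to 6.27) times in db/+ GM-CSF cells, against 3.77 (3.42 to 4.16) in db/db and 3.63 (3.27 to 4.03) in db/+ M-CSF cells. These are ratios of reads, not corrected for length, and only their difference between libraries is read here: the GM-CSF intervals lay above the M-CSF intervals in both genotypes.

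Srebf2, which encodes SREBP2 and is also one of its targets, was at 4099.9 in db/db and 4059 in db/+ GM-CSF cells, against 2872 in db/db and 3065 in db/+ M-CSF cells, a log2 fold of 0.46 ± 0.08 (limma, SE; adjusted p = 2.93e-04). Scap was at 515 in db/db and 521.5 in db/+ GM-CSF cells, against 632 in db/db and 655 in db/+ M-CSF cells, lower in GM-CSF cells by a limma log2 fold of -0.31 ± 0.12 (SE; adjusted p = 0.043). The Scap call was lost without the db/+ M-CSF library (adjusted p = 0.0631), without the db/+ GM-CSF library (0.177) and without the db/db GM-CSF library (0.197). Of the proteases, Mbtps2 (site-2) was at 2328 in db/db and 2435 in db/+ GM-CSF cells, against 1887 in db/db and 1827 in db/+ M-CSF cells, a log2 fold of 0.36 ± 0.09 (limma, SE; adjusted p = 0.00306). Mbtps1 (site-1) was at 2910.0 in db/db and 2955 in db/+ GM-CSF cells, against 3015 in db/db and 2873 in db/+ M-CSF cells, with a limma log2 fold of -0.01 ± 0.08 (SE; adjusted p = 0.964). The limma log2 folds of the 6 control genes ran from -0.31 to 0.95, and those of the 20 enzymes from -1.53 to 2.93.

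A pair of the smaller control folds lost their call with 1 GM-CSF library left out, while the log2 folds stayed close. Without the db/+ GM-CSF library the limma log2 fold of Insig2 was 0.38 (adjusted p = 0.0763) and that of Mbtps2 0.33 (adjusted p = 0.0825). Without the db/db GM-CSF library that of Insig2 was 0.33 (adjusted p = 0.117). Calls over all genes also fell in these fits. RefSeq places the gene Yy2, at 226 in db/db and 249 in db/+ GM-CSF cells, against 227 in db/db and 182 in db/+ M-CSF cells, inside Mbtps2, and the sources used here do not give the strand of the reads.

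All 3 transport genes rose in GM-CSF cells, with a median log2 fold of 0.88. Stard4, which ferries cholesterol between membranes and is a target of SREBP2, was at 1889 in db/db and 1817 in db/+ GM-CSF cells, against 917 in db/db and 890.3 in db/+ M-CSF cells, a log2 fold of 1.03 ± 0.10 (limma, SE; adjusted p = 3.09e-07). Npc1, the membrane protein of lysosomal cholesterol export, was at 20908 in db/db and 20719 in db/+ GM-CSF cells, against 10902 in db/db and 11792 in db/+ M-CSF cells, and Npc2, its soluble partner, was at 41672 in db/db and 41099 in db/+ GM-CSF cells, against 25254 in db/db and 26687.5 in db/+ M-CSF cells. Their folds in db/db marrow were 1.92 (1.86 to 1.98) for Npc1 and 1.65 (1.61 to 1.69) for Npc2, and their limma adjusted p were 1.06e-06 and 6.07e-05. In db/+ marrow they were 1.76 (1.70 to 1.81) and 1.54 (1.51 to 1.57), below those of db/db marrow.

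Ordered by the limma log2 fold, the genes ran from Mvd, Fdps, Dhcr7 and Sqle at the top, at 2.93 to 1.87, through Lss, Acat2 and Sc5d at 1.63 to 1.59, to Ggps1, Mbtps1, Scap and Lbr at the bottom. Neighbours in this order mostly had overlapping intervals, which is not a test of a difference. In 27 of the 28 neighbouring pairs the intervals of the culture ratio overlapped in at least 1 genotype, and Scap and Lbr were the pair that stood apart in both. Some of the 27 stood apart in 1 genotype, such as Mvd (7.09 to 9.46) and Fdps (3.78 to 5.85) in db/db marrow.

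**Figure D3:**
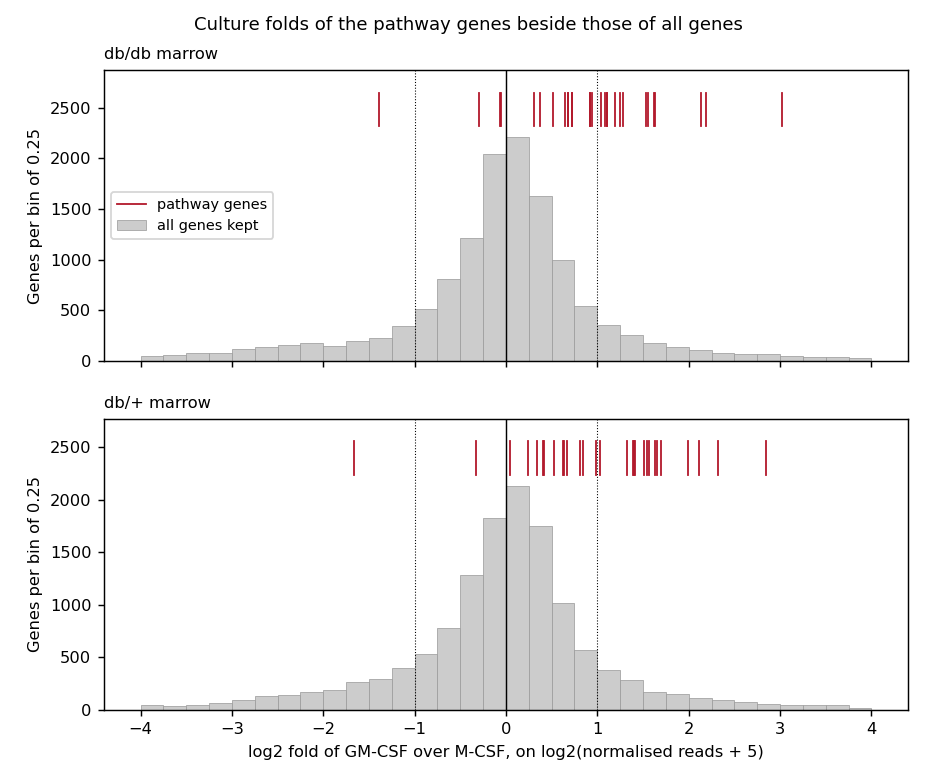
Histogram of the log2 fold of GM-CSF over M-CSF cells, on log2(normalised reads + 5), for the 13642 genes kept, in db/db marrow (top) and db/+ marrow (bottom). Red ticks mark the 29 genes and dotted lines 2-fold: 14 ticks in db/db and 15 in db/+ marrow lie past the right line, and 1 lies past the left line in each.

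As a whole, the 20 enzymes took 0.188% of reads in db/db GM-CSF cells (95% Wilson interval on read pairs 0.186 to 0.191) and 0.188% in db/+ GM-CSF cells (0.186 to 0.190). They took 0.109% in db/db M-CSF cells (0.107 to 0.110) and 0.0949% in db/+ M-CSF cells (0.0932 to 0.0966). Their summed normalised reads were 2.22 times as high in GM-CSF as in M-CSF cells of db/db marrow and 2.48 times in db/+ marrow. The 6 control genes took 0.0567% and 0.0573% of reads in db/db and db/+ GM-CSF cells, and 0.0528% and 0.0515% in db/db and db/+ M-CSF cells. The enzymes' share also differed between the M-CSF libraries, whose intervals did not overlap. Hmgcs1 alone held 8819 of 29977 enzyme reads in db/db and 6489 of 24291 in db/+ M-CSF cells.

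**Figure D4:**
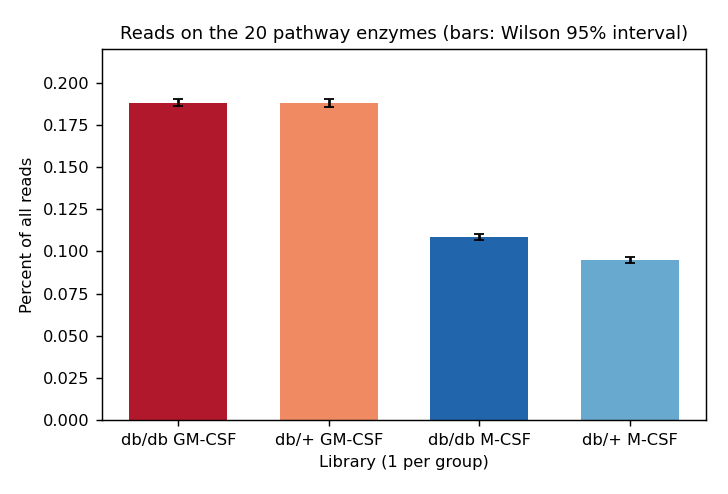
Share of all reads on the 20 enzymes in each library, in percent, with the Wilson 95% interval on read pairs as bars. The GM-CSF libraries both stand at 0.188%, db/db M-CSF at 0.109% and db/+ M-CSF at 0.0949%.

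The next question was how cells of db/db mice differed from those of db/+ mice. In M-CSF cells several enzymes stood higher in db/db marrow, all by less than 2-fold. Of the 29 genes 19 were above and 10 below a log2 fold of 0, with a median of 0.07 against 0.02 over all genes, and 0 were at least 2-fold apart, where 5.83% of all genes were. Among the 20 enzymes 14 were above 0, with a median of 0.15, and their summed normalised reads were 1.13 times as high in db/db. Hmgcs1 was the largest part of these sums, at 7684 of 26120 in db/db and 6172 of 23105 in db/+ M-CSF cells. The interval of the ratio lay above 1 for 8 of the 29 genes and below 1 for 3, where it lay above 1 for 19.8% and below 1 for 14.3% of all genes. Such intervals narrow with reads, and the shares over all genes include many genes with few reads.

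Hsd17b7 had the highest ratio, 1.55 (1.28 to 1.88), from 517 normalised reads in db/db M-CSF and 333 in db/+ M-CSF cells. Sqle followed with 1.40 (1.25 to 1.58), from 1292 normalised reads in db/db M-CSF and 919.8 in db/+ M-CSF cells. Idi1 had a ratio of 1.25 (1.11 to 1.41) and Cyp51 of 1.25 (1.13 to 1.38). The other 4 with an interval above 1 were Hmgcs1 at 1.25 (1.19 to 1.30), Ggps1 at 1.24 (1.07 to 1.44), Sc5d at 1.19 (1.05 to 1.34) and Sc4mol at 1.18 (1.07 to 1.29). These 8 lie in all the arms of the synthesis pathway, and none is a control or transport gene.

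Mvd, Fdps and Dhcr7, the 3 enzymes with the highest culture folds by limma, were not among them. Mvd had a ratio of 0.924 (0.764 to 1.12), from 386 normalised reads in db/db M-CSF and 418 in db/+ M-CSF cells. Dhcr7 had 0.907 (0.790 to 1.04), from 717 normalised reads in db/db M-CSF and 790.4 in db/+ M-CSF cells. Fdps stood at 1.09 (0.815 to 1.45) and Lss at 1.01 (0.860 to 1.19). The 3 genes with an interval below 1 were Lbr at 0.904 (0.829 to 0.987), Npc1 at 0.925 (0.892 to 0.958) and Npc2 at 0.946 (0.925 to 0.969). Srebf2 was at 0.937 (0.874 to 1.004), Insig1 at 1.05 (0.985 to 1.12) and Scap at 0.964 (0.829 to 1.12), all with intervals that held 1.

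Markers of other cells moved in the same comparison. The stromal markers summed to 81839 in db/db M-CSF and 30047 in db/+ M-CSF cells, with 14 of the 14 that reached the level minimum higher and 12 of them at least 2-fold. The 20 cell cycle genes summed to 12292 in db/db M-CSF and 11391 in db/+ M-CSF cells, with 15 of 20 above 0 and a median log2 fold of 0.20, and the macrophage markers summed to 533400 against 562550. The part of these markers in the enzyme differences was not tested.

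Between the GM-CSF libraries, which differed by about the sampling noise of read pairs at moderate levels, the gaps were smaller. That these libraries come from separate cultures of the opposite genotypes rests on the labels alone. Of the 29 genes 0 were at least 2-fold apart, where 1.06% of all genes were, and the median log2 fold was 0.01 against 0.01 over all genes. Fdft1 had a ratio of 1.10 (1.05 to 1.17) and Sc5d of 1.08 (1.003 to 1.17), the 2 intervals above 1, and Idi1 of 0.918 (0.845 to 0.997), the 1 interval below 1. Over all genes 4.28% had an interval above 1 and 2.43% one below 1, close to the shares that these 3 genes make of the 29. Of the 8 genes above 1 in M-CSF cells, the GM-CSF interval held 1 for 6, lay above 1 for Sc5d and below 1 for Idi1. Hsd17b7 stood at 1.12 (0.973 to 1.28) and Sqle at 1.004 (0.941 to 1.07). The stromal markers summed to 415 in db/db and 385 in db/+ GM-CSF cells.

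**Figure D5:**
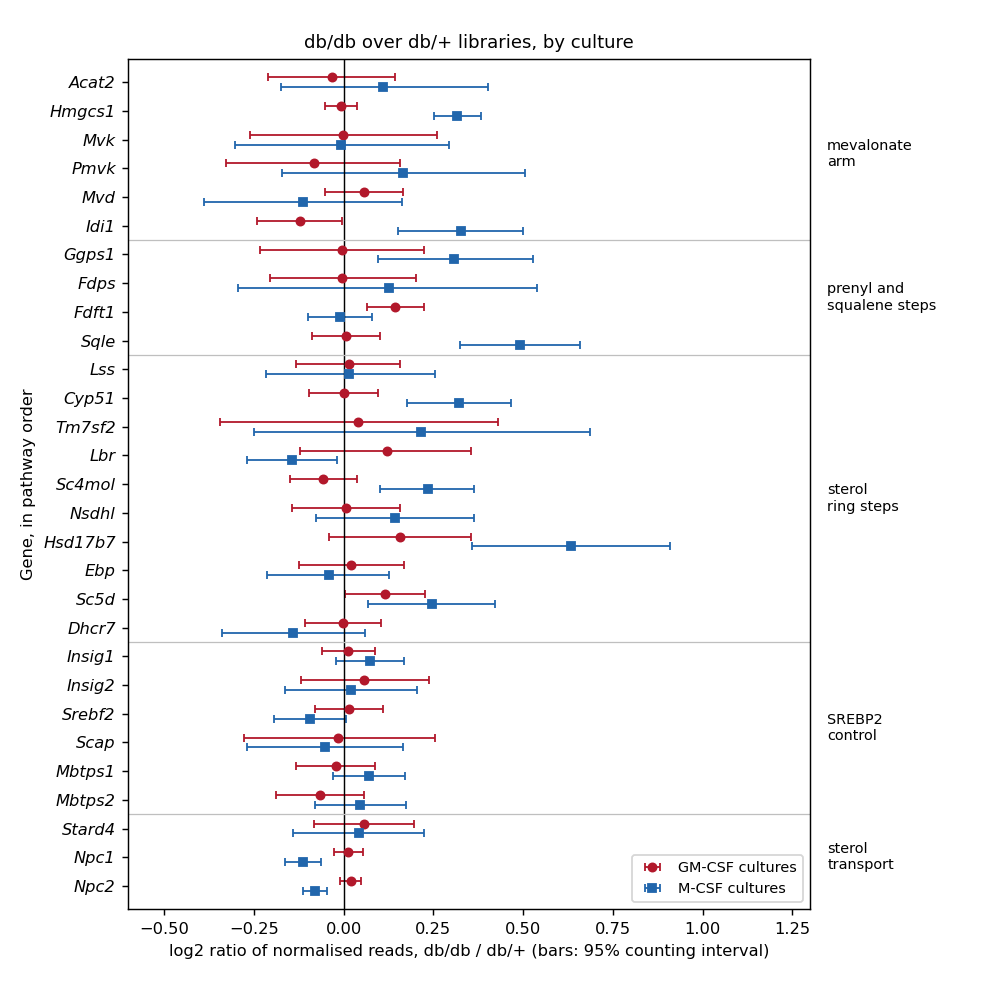
Ratio of normalised reads in db/db over db/+ marrow on a log2 scale, in GM-CSF cells (dark red circles) and M-CSF cells (blue squares), with bars for the exact 95% counting interval. In M-CSF cells Hsd17b7 and Sqle lie farthest right at 1.55 and 1.40, while in GM-CSF cells all 29 points lie between 0.918 and 1.12.

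Over both cultures, 0 of the 29 genes passed for genotype in limma, where 0.00733% of all genes (1 of 13642) did. At an unadjusted p under 0.05 limma gave 2 of the 29, Hsd17b7 and Sqle, where 4.42% of all genes were. Hsd17b7 had a limma log2 fold of 0.39 (SE 0.13; adjusted p = 0.931) and Sqle of 0.25 (SE 0.11; adjusted p = 1.0). The edgeR and DESeq2 tests on the recovered reads also called 0 of the 29.

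The culture fold can be set side by side in the 2 genotypes. The ratio of the db/db to the db/+ culture fold equals the GM-CSF over the M-CSF genotype ratio. It therefore restates the genotype ratios above and is no separate result. Of the 8 genes with an M-CSF genotype interval above 1, this ratio had an interval below 1 for 7: Hmgcs1, Idi1, Ggps1, Sqle, Cyp51, Sc4mol and Hsd17b7. It was 0.715 (0.627 to 0.816) for Sqle, 0.719 (0.571 to 0.905) for Hsd17b7 and 0.733 (0.634 to 0.847) for Idi1. For 4 genes it lay above 1: Fdft1, Lbr, Npc1 and Npc2, with 1.11 (1.02 to 1.21) for Fdft1 and 1.09 (1.04 to 1.14) for Npc1. Over all genes 11.7% had an interval below 1 and 10.7% one above 1. These normal-approximation intervals cover counting error, and with 1 library per group the interaction could not be tested against replicates.

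Of the genes next to the pathway, the isoprenoid, degradation and sterol transport lists had median culture folds nearer to 0 than the 29 genes. The fatty acid genes controlled by SREBP1, described in the closing section, had a median log2 fold of 1.04, beside 1.03 for the 29 genes. Of 13 isoprenoid branch genes at the level minimum, which use farnesyl and geranylgeranyl diphosphate, 1 was called higher and 1 lower in GM-CSF cells by limma, with a median log2 fold of -0.04 and ratios that stayed under 2-fold. Over all genes 29.8% were called higher and 27.3% lower. Pggt1b, a subunit of a prenyl transferase, was at 844.5 in db/db and 784 in db/+ GM-CSF cells, against 1093.5 in db/db and 1123 in db/+ M-CSF cells (log2 fold -0.44 ± 0.11, SE; adjusted p = 0.00231). Pdss1, which builds the tail of coenzyme Q, was at 149.5 in db/db and 138 in db/+ GM-CSF cells, against 200.4 in db/db and 172 in db/+ M-CSF cells and did not pass (adjusted p = 0.144).

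Of 13 genes of the sterol-regulated degradation machinery, 3 were called higher and 1 lower, with a median of 0.04. Erlin2, a scaffold of the ubiquitin ligases that degrade sterol enzymes, was at 3393 in db/db and 3576 in db/+ GM-CSF cells, against 2481 in db/db and 2141 in db/+ M-CSF cells (log2 fold 0.59 ± 0.09, SE; adjusted p = 6.62e-05), and Tmub1 at 279 in db/db and 248 in db/+ GM-CSF cells, against 186.5 in db/db and 197 in db/+ M-CSF cells (adjusted p = 0.0473). Sterol transport and storage genes beside the 29 were called higher in 10 and lower in 3 of 18, with a median of 0.34. The counts of both lists stand beside 29.8% of all genes called higher and 27.3% called lower. Soat1, which esterifies cholesterol for storage in macrophages, was at 34546 in db/db and 35066 in db/+ GM-CSF cells, against 14998 in db/db and 15334.5 in db/+ M-CSF cells (log2 fold 1.20 ± 0.10, SE; adjusted p = 6.05e-08). Soat2, the form best known from liver and intestine, was at 127 in db/db and 105 in db/+ GM-CSF cells, against 23.5 in db/db and 23.8 in db/+ M-CSF cells (log2 fold 2.08 ± 0.31, SE; adjusted p = 4.48e-05). The differences between these lists and the 29 genes were not tested.

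Some of the 29 genes share their place in the genome with others. In the reference annotation 10 of them overlap another gene. For 3 that gene was found under its current symbol: Fdft1 with Ctsb, Lss with 4930483K19Rik and Mbtps2 with Yy2. Older symbols of the overlapping genes were not searched. Among those not found, Rmc1 overlaps Npc1 by 8982 bases, Gm35223 overlaps Insig1 by 7251 and Gm51557 overlaps Mvd by 3213. The noncoding 4930483K19Rik was at 118 in db/db and 149 in db/+ GM-CSF cells, against 46.2 in db/db and 47.6 in db/+ M-CSF cells, which shows the same order of the cultures as Lss. Without the strand of the reads, such pairs cannot be separated.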

How the data were processed

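The deposited files hold, for each of the 4 libraries, a normalised signal in 22700 gene rows: read counts divided by a size factor by the authors and rounded to 1 decimal. The name of the files points to edgeR's TMM factors. The submitters' processing notes name TopHat 1.2.0, edgeR and both mm8 and mm9, the builds with no role stated. The sources used here give no counting tool, annotation or strand. The design allowed for counts or normalised values, and the files hold the second.

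Whole reads were recovered by dividing by the value of 1 read (1.08, 1.12, 0.871 and 0.951 in the db/db and db/+ GM-CSF and the db/db and db/+ M-CSF libraries). With a tolerance of 0.1, 99.91% to 100.0% of values were whole. Even counts were commoner than odd (52.6% to 56.3%), so intervals used read pairs. Odd counts were frequent too, so pairs as the unit are an assumption. No per-sample columns were unused (0). Rows with a repeated symbol (78) stayed in the fits and are not named.

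Genes with a value of 20 in at least 1 library were kept. Limma 3.58.1 (R 4.3.3; lmFit, eBayes with a variance trend) was fitted to log2(value + 5), which understates folds of low genes, with genotype and culture as additive factors over all genes. It has 1 residual and 12.87 prior degrees of freedom. P-values are two-sided. With no replicate cultures, their error is the departure of these libraries from additive effects of genotype and culture, with a spread shared across genes. A difference between the genotypes in the culture fold therefore counts as error in this model. Alternatives included edgeR 4.0.16 and DESeq2 1.42.0 on recovered reads. The fit was also run on simulated counts with known culture folds, no genotype effect and the same dispersion in every library. These settings differ from the data, so that run does not check the p-values given here. Pairs of libraries were compared without a test, by exact conditional binomial intervals (scipy 1.17.1).

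Named with their levels were the genes at least 2-fold apart between cultures or past a test, and the control genes. So were Srebf1 and the 2 genes with the largest culture fold in each related list other than the marker and cell cycle lists. Ggps1 and Mbtps1 complete the 29. Outside this rule, single marker genes, overlapping genes, Lepr and some genes of the closing section were chosen after their values were seen. Of one related list, 1 gene was not matched. The members and lists were chosen with earlier results of these data known. Sequences and starts are RefSeq's (GRCm38.p6), with no coordinates taken from the files.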

Additional observations from a re-analysis of the deposited data

Results flagged for a closer look

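Idi1, the isomerase of the mevalonate arm, differed between the genotypes in opposite directions in the cultures. In M-CSF cells it was higher in db/db marrow, at 1120.5 against 894 normalised reads in db/+ marrow, a log2 fold of 0.324 and a ratio of 1.25 (1.11 to 1.41). In GM-CSF cells it was lower in db/db marrow, at 2411 against 2626 in db/+ marrow, a log2 fold of -0.12 and a ratio of 0.918 (0.845 to 0.997). Both counting intervals left out 1, the GM-CSF one narrowly. Over all genes, 19.8% had an M-CSF interval above 1 and 2.43% a GM-CSF interval below 1. Idi1 was the only 1 of the 29 genes with a GM-CSF interval below 1, close to that share. Each culture has 1 library per genotype, so the difference between the cultures was not tested.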

How the results depend on the processing

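Each result was recomputed with pseudocounts of 1 and 20, no filter, a level minimum of 200, median-of-ratios scaling, no variance trend, 1 factor in the model, each library left out, edgeR and DESeq2, and, added after the data were seen, the GM-CSF libraries averaged as 1 sample. The count of genes called higher in GM-CSF cells was 25 of 29 in the model reported and ranged from 21 (DESeq2) to 25, and from 22 to 25 with a library left out. The count called lower was 2, and it was 1 with no filter, with no variance trend, with the GM-CSF libraries averaged and with DESeq2, and between 1 and 2 with a library left out. The gene lost was Scap (adjusted p = 0.0532 with no filter, 0.101 with no trend, 0.189 averaged, 0.227 with DESeq2). Insig2 (0.0783 with no trend, 0.0956 averaged, 0.182 with DESeq2), Mbtps2 (0.0831, 0.0635 and 0.0615 in the same order), Tm7sf2 (0.0678 averaged, 0.122 with DESeq2), Srebf2 (0.0513 with no trend) and Mvk (0.0549 with DESeq2) were also lost in some. The causes were not tested. Over all genes the culture calls were 4062 higher and 3725 lower, against 2600 and 2388 averaged, 2613 and 2413 without db/+ GM-CSF, and 2576 and 2433 without db/db GM-CSF. For genotype all genes gave 1 higher and 0 lower in limma, 101 and 2 in edgeR, and 2 and 0 in DESeq2. The 29 genes gave 0 in each. Among single-gene log2 folds 1281 kept their direction and side of the threshold, 22 lost a call, 1 moved and 59 changed sign, none of these called in the model reported. Of the 59, 3 were culture folds near 0 with a library left out, which ran from -0.0674 to 0.238 for Ggps1 and from -0.0398 to 0.0294 for Mbtps1, and 1 was the genotype fold of Lss with DESeq2 (-0.0006). The other 55 were genotype folds of 28 genes with a library left out. These fits hold genotype alone, 2 libraries against 1, so by construction the culture difference enters the fold. They ran from -1.54 to 1.48 for Mvd, -1.14 to 0.997 for Dhcr7, -1.10 to 1.22 for Fdps, -0.84 to 0.82 for Lbr, -0.81 to 0.89 for Acat2, -0.81 to 1.30 for Sqle, -0.80 to 0.83 for Lss, -0.67 to 0.88 for Idi1, -0.65 to 1.010 for Sc5d, -0.63 to 0.78 for Nsdhl, -0.62 to 0.94 for Cyp51, -0.62 to 0.70 for Pmvk, -0.61 to 0.79 for Sc4mol, -0.60 to 0.91 for Hmgcs1, -0.52 to 0.42 for Npc1, -0.47 to 0.57 for Stard4, -0.45 to 0.53 for Insig1, -0.39 to 0.33 for Npc2, -0.37 to 0.35 for Ebp, -0.33 to 0.32 for Mvk, -0.30 to 1.09 for Hsd17b7, -0.30 to 0.55 for Tm7sf2, -0.30 to 0.22 for Srebf2, -0.27 to 0.41 for Fdft1, -0.22 to 0.20 for Mbtps2, -0.20 to 0.13 for Scap, -0.15 to 0.23 for Insig2 and -0.002 to 0.049 for Mbtps1. Median-of-ratios scaling moved the median of all genes by -0.0356 to 0.0003, and the log2 fold of Npc2 in db/+ marrow to 0.59. No paired analysis was possible because each group has 1 library and the labels give no replicate numbers. Depth limits the genotype ratios most for genes with few reads, such as Tm7sf2, whose M-CSF interval ran from 0.841 to 1.61.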

Other observations

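The fatty acid genes controlled by SREBP1, the sister factor of SREBP2, also differed between the cultures. Of 14 of these genes at the level minimum, out of 16 listed, 10 were called higher and 2 lower in GM-CSF cells by limma, with a median log2 fold of 1.04, where 29.8% of all genes were called higher and 27.3% lower. The stearoyl-CoA desaturase genes Scd2 and Scd1 had the highest folds: Scd2 was at 21728 in db/db and 22261 in db/+ GM-CSF cells, against 1534 in db/db and 827 in db/+ M-CSF cells, and Scd1 at 4504 in db/db and 4494 in db/+ GM-CSF cells, against 399 in db/db and 179 in db/+ M-CSF cells. Their limma log2 folds were 4.28 ± 0.15 for Scd2 and 4.05 ± 0.18 for Scd1 (SE; adjusted p = 6.07e-12 and 1.01e-10). Fasn, the fatty acid synthase, was at 5069 in db/db and 5065 in db/+ GM-CSF cells, against 1507 in db/db and 1444 in db/+ M-CSF cells. Srebf1, which encodes SREBP1, was at 2551 in db/db and 2697 in db/+ GM-CSF cells, against 1484 in db/db and 1565 in db/+ M-CSF cells (log2 fold 0.78 ± 0.09, SE; adjusted p = 2.47e-06). Me1, the malic enzyme that supplies NADPH, was lower, at 26.9 in db/db and 31.4 in db/+ GM-CSF cells, against 193 in db/db and 98 in db/+ M-CSF cells (log2 fold -2.07 ± 0.33, SE; adjusted p = 7.42e-05). Between the M-CSF libraries, 2 of these genes were past 2-fold, higher in db/db, on log2(normalised reads + 5), where 5.83% of all genes were 2-fold apart: Scd1, with a ratio of 2.23 (1.75 to 2.87), and Fads2, a desaturase of polyunsaturated fatty acids, with 2.08 (1.51 to 2.90). Fasn stood at 1.04 (0.946 to 1.15) and Srebf1 at 0.948 (0.862 to 1.05).

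Genes listed as targets of the oxysterol receptors LXR, together with the receptor genes, did not share a direction. Of 11 genes 4 were called higher and 5 lower in GM-CSF cells, with a median log2 fold of 0.14, beside 29.8% and 27.3% of all genes. The cholesterol efflux pumps were on opposite sides: Abcg1 was at 27319 in db/db and 27242 in db/+ GM-CSF cells, against 4524 in db/db and 5115 in db/+ M-CSF cells (limma log2 fold 2.50 ± 0.09, SE; adjusted p = 8.09e-12), and Abca1 at 11553 in db/db and 11848 in db/+ GM-CSF cells, against 22859 in db/db and 22773 in db/+ M-CSF cells (log2 fold -0.96 ± 0.09, SE; adjusted p = 3.54e-07). Aebp1, also a gene of matrix-producing cells, was at 4.3 in db/db and 5.6 in db/+ GM-CSF cells, against 1392 in db/db and 522 in db/+ M-CSF cells. It was among the 5 called lower and had the lowest limma log2 fold of the list, -6.43. It was low in the libraries in which the stromal markers were low. Abca1, Fasn, Fads2 and Me1 were chosen for naming after their values were seen.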
